A study of Homo sapiens with 9 samples.

Results

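A set of 334 probes stood lower on both combination arrays than on every other array of KYSE30 cells, a human cell line established from an esophageal squamous carcinoma. It made up 1.76% of the 19006 probes detected on at least 1 array, out of 47317 measured. A probe belonged to the set where the higher of its 2 combination values lay at least 1.5-fold below the lowest of its other 7 values. Detection means a detection p under 0.01, the value that Illumina arrays give for a signal against background, and processed intensities under 16 were set to 16 before taking log2. The probes were thus chosen by the processed intensities of all 9 arrays, and the levels and differences below describe the set without testing it.

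Cells in all groups were transfected with Lipofectamine, and RNA was taken on day 3. The groups received the miRNA combination, the siRNA combination, 1 of the single microRNAs miR-32, miR-455, miR-181a and miR-181b, 1 of the small interfering RNAs siPIK3R1 and siPIK3R3, or a negative control. Each of the 9 groups had 1 array, so values come without replicate error or p-value, and a difference between arrays cannot be told apart from a difference between cultures. Which RNAs the combinations held, and at which dose, the labels do not say.

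MicroRNAs are short RNAs that guide Argonaute proteins to messenger RNAs, mostly through pairing of the seed near their 5′ end, and so lower the stability and translation of their targets. Small interfering RNAs enter the same complex and cleave a fully matched target, but their seeds can also act on other messenger RNAs in the way of a microRNA. PIK3R1 and PIK3R3 encode regulatory subunits of PI3K, which bind receptor phosphotyrosines and control the catalytic subunit that makes the lipid messenger upstream of AKT.

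The mature microRNA sequences show the seeds of the transfected microRNAs, with the seed (bases 2 to 8) in capitals. They come from RefSeq (GRCh38.p14), and the labels name no arm for any of them. Both arms are printed for miR-32 and miR-455, and the 5p arms, which share a seed, for miR-181a and miR-181b, whose 3p arms are not shown.
miR-32-5p: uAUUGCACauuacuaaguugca
miR-32-3p: cAAUUUAGugugugugauauuu
miR-455-5p: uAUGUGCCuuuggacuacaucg
miR-455-3p: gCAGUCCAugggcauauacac
miR-181a-5p: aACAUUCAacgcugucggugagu
miR-181b-5p: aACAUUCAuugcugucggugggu
The miR-181a-5p and miR-181b-5p sequences share their seed and differ at 3 of 23 bases, all outside it. The siRNA sequences and the sequences of the probes were not used here.

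The probes are named by number only, and neither the files nor the reference tables used here pair these numbers with genes. The pathways, cell type markers and chromosomes of the 334 probes, the squamous identity of the cells, the knockdown of PIK3R1 and PIK3R3 and the presence of seed sites were therefore not analysed here. At the level of the arrays, signal was lower in the combinations. The mean raw signal was 270 on the miRNA combination array and 223 on the siRNA combination array, against 343 (siPIK3R1), 361 (miR-181b) and 392 to 468 on the remaining 5 arrays. The processed values have been scaled to an equal mean on every array, 294. The raw level that became 0 was 59.0 in the miRNA combination and 53.2 in the siRNA combination, against 76.2 to 85.1 on the other arrays. The slope of processed on raw signal was 1.39 and 1.73 in the combinations, against 0.77 to 1.14 on the others. Precision is limited by the number of arrays.

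The set spanned most of the range of signal and stood lowest in both combinations. The median processed intensity of the 334 probes was 103 in the miRNA combination and 97.1 in the siRNA combination. It was 197 in miR-181b, 200 in siPIK3R1, 301 in siPIK3R3, 327 in miR-181a, 305 in miR-455, 304 in miR-32 and 329 in the negative control. In these medians miR-181b and siPIK3R1 lay between the combinations and the other 5 arrays. Values ran from the floor of 16 to 6428 in the miRNA combination and from 16 to 6209 in the siRNA combination, against 27.3 to 12857 in the negative control. Averaged over arrays on the log2 scale, the median probe was 2.62-fold lower in the combinations than on the other 7 arrays (log2 difference -1.39, quartiles -1.60 and -1.15). The same median over all detected probes was -0.04.

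On each array a probe was ranked among the 19006 probes detected on at least 1 array, and no scaling of an array changes this rank. The ranks order the same signals by which the set was chosen, so they describe the set without testing it. The median rank of the set was at the 42.5th percentile in the miRNA combination and the 42.5th in the siRNA combination. It was at the 55.7th in miR-181b and the 56.6th in siPIK3R1, and between the 63.4th and the 66.1st on the other 5 arrays. All 334 probes ranked lower in both combinations than on each other array, as did 2456 (12.9%) of all detected probes. The lowest rank on the other 7 arrays stood above the higher combination rank by a median of 9.41 percentile points, and by up to 33.02.

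Most of the set lay close to the threshold. The gap, taken as the higher combination value minus the lowest other value on the log2 scale, had a median of -0.76, or 1.69-fold. The quartiles of the gap were 1.59-fold and 1.86-fold. The gap was at least 2-fold for 53 probes (15.9%) and at least 3-fold for 4, and 89 were under 1.6-fold. A further 181 detected probes fell just short, with gaps of 1.4-fold to 1.5-fold. The 3 probes just inside the threshold had gaps of 1.501-fold, 1.505-fold and 1.507-fold, and the 3 just outside had 1.49995-fold, 1.49968-fold and 1.49942-fold, so the edge of the set marks no break in the data. Of all detected probes, 13.6% were lower in both combinations than on every other array by any amount.

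The probe with the widest gap by the rule, ILMN_2239772, was near background in both combinations. Its processed intensity was 9.86 in the miRNA combination and 4.22 in the siRNA combination, against 72.5 in siPIK3R1, 164 in siPIK3R3, 107 in miR-181b, 137 in miR-181a, 136 in miR-455, 153 in miR-32 and 228 in the negative control. Neither combination array detected it, whereas all 7 other arrays did. Set against the lowest intensity of a detected probe, 37.1 on the miRNA combination array and 40.4 on the siRNA combination array, it was at least 1.79-fold lower there than in siPIK3R1, the lowest other array. With the floor of 16 the gap was 4.53-fold.

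The second widest gap belonged to ILMN_1811823, which all 9 arrays detected. It had 48.4 in the miRNA combination and 40.8 in the siRNA combination. The other arrays gave 188 in siPIK3R1, 522 in siPIK3R3, 257 in miR-181b, 429 in miR-181a, 393 in miR-455, 431 in miR-32 and 376 in the negative control. The gap was 3.88-fold. Relative to the negative control, its log2 difference was -2.96 in the miRNA combination, -3.20 in the siRNA combination, -0.9995 in siPIK3R1 and -0.55 in miR-181b, while siPIK3R3, miR-32, miR-181a and miR-455 were 0.06 to 0.48 higher.

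The brightest probe of the set also had a wide gap. Its intensity was 3957 in the miRNA combination and 2244 in the siRNA combination. It was 10645 in siPIK3R1, 12077 in siPIK3R3, 11124 in miR-181b, 10888 in miR-181a, 13675 in miR-455, 11798 in miR-32 and 12857 in the negative control. The 7 other values lay within 1.28-fold of each other, and the gap to the combinations was 2.69-fold. Here miR-181b and siPIK3R1 stood with the other single agents, unlike in the medians of the set.

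The dimmest probe of the set showed how little separates probes near the floor. It had 12.2 in the miRNA combination and 16.4 in the siRNA combination, against 29.1 in siPIK3R1, 26.8 in siPIK3R3, 36.1 in miR-181b, 27.2 in miR-181a, 31.2 in miR-455, 34.9 in miR-32 and 59.9 in the negative control. Only 2 of the 9 arrays detected it.

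Fewer probes of the set were detected in the combinations than on any other array. Of the 334 probes, 256 (76.6%) were detected in the miRNA combination and 243 (72.8%) in the siRNA combination, against 80.8% and 77.8% of all 19006 detected probes. Among the single agents the number ran from 298 in siPIK3R1 (89.2%) and 304 in miR-181b (91.0%) to 333 in miR-32 (99.7%). The shares of all detected probes on these arrays were 75.5%, 75.3% and 83.0%. In the negative control 324 (97.0%) were detected, against 79.4% of all detected probes. All 9 arrays detected 241 probes of the set (72.2%), against 64.2% of all detected probes. Neither combination array detected 76 probes of the set, and only 30 of these were detected on all 7 other arrays. Of the 12448 probes of the whole array detected on all 7 others, 58 (0.466%) were detected in neither combination. The rule asks for at least 24 on the 7 other arrays and for lower values in the combinations. It thus bears on all these shares, which are no separate trait of the set. Of the set, 34 probes were at the floor of 16 on at least 1 combination array and 16 on both. The share of all detected probes at the floor was not taken. The floor lies below the lowest intensity of a detected probe on either combination array, so a gap taken at the floor is no bound. With undetected values raised to that lowest intensity on each array, 269 of the 334 probes met the rule.

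The set drew on every level of signal above the floor. A probe needed at least 24 on every other array to be eligible, which 14448 detected probes had. When detected probes were split into 10 equal bins by their mean log2 level on the other 7 arrays, from dim to bright, 2.11% to 2.63% of each of bins 4 to 9 belonged to the set. The share was 1.53% in bin 10 (levels from 1651 to 23282), 1.21% in bin 3 and 0.158% in bin 2. Only 1167 probes of bin 3 and 105 of bin 2 were eligible, and 1.97% and 2.86% of these belonged to the set. Over all eligible probes the share was 2.31%. Bin 1 gave none, since none of its probes was eligible. When the set itself was split into 3 equal groups by level, the median gap was -0.76 among the 112 dim probes, -0.73 among the 111 of middle level and -0.78 among the 111 bright ones. By the rule none of these medians could be under 1.5-fold. Gaps of at least 2-fold were found for 24 dim, 19 middle and 10 bright probes, and the median log2 difference of the combinations from the other 7 arrays was -1.46, -1.41 and -1.32 in the same order. Of the 34 probes at the floor, 33 were in the dim group.

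The name of the set holds for the rule but not for every comparison with the negative control. All comparisons with the negative control share its 1 array. By the rule, all 334 probes were at least 1.5-fold lower than the negative control in the miRNA combination (20.3% of all detected probes) and in the siRNA combination (26%). In siPIK3R1, 142 of the 334 were also at least 1.5-fold lower (15.3% of all detected probes), and in miR-181b 129 were (13%). The counts were 23 in miR-455 (7.05%), 13 in miR-32 (8.32%), 21 in miR-181a (8.73%) and 24 in siPIK3R3 (15.4%). Few probes were 1.5-fold higher than the negative control: 2 in siPIK3R1 (19.3% of all detected probes), 3 in miR-181b (15.8%), 6 in miR-455 (8.51%), 2 in miR-32 (6.9%), 17 in miR-181a (9.02%) and 19 in siPIK3R3 (12.5%). Since the rule asks every other array to stand above both combinations, it also bears on these counts.

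The sizes followed the same steps. The median log2 difference of the set from the negative control was -1.49 in the miRNA combination (quartiles -1.85 and -1.23) and -1.61 in the siRNA combination (-1.91 and -1.28). It was -0.52 in siPIK3R1 (-0.75 and -0.24) and -0.48 in miR-181b (-0.73 and -0.21). The medians in the remaining transfections were -0.16 in miR-455, -0.07 in miR-32, -0.06 in siPIK3R3 and -0.03 in miR-181a. Over all detected probes the 8 medians lay between -0.07 and 0.03.

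The miR-181b and siPIK3R1 arrays were also the lowest of the other 7 for most probes. The lowest of the 7 was siPIK3R1 for 142 probes (23.2% of all detected probes had this order), miR-181b for 120 (12.5%), and 1 of the other 5 arrays for 72. Both arrays together were the 2 lowest of the 7 for 193 probes, or 57.8% of the set, against 18.6% of all detected probes. They were so for 42 of the 112 dim probes, for 79 of the 111 of middle level and for 72 of the 111 bright ones. The share of all detected probes with this order was not taken by level, so these counts show no trait of the set. The highest of the 7 was miR-181a for 101 probes (16% of all detected probes), siPIK3R3 for 82 (16.8%) and the negative control for 93 (10.3%).

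To place each array, its distance from the mean of the remaining 6 was divided by the distance of the combinations from that mean, so that 0 is the level of the 6 and 1 that of the combinations. The median place was 0.26 for siPIK3R1 (quartiles 0.12 and 0.40) and 0.24 for miR-181b (0.11 and 0.37). It was -0.02 for miR-455, -0.10 for miR-32, -0.11 for siPIK3R3, -0.15 for miR-181a and -0.16 for the negative control. Each place is relative to the other 6 arrays, so the high places of siPIK3R1 and miR-181b move the remaining ones below 0. The 4 arrays at which the set was lowest, both combinations, siPIK3R1 and miR-181b, were also the 4 with the lowest mean raw signal (223 to 361, against 392 to 468), and the part of signal brightness in these levels was not tested.

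Each combination was also set against the single agents of its own kind. The miRNA combination was below the lowest of the 4 single microRNAs by a median log2 difference of -0.93 (quartiles -1.16 and -0.76, widest -2.74). The siRNA combination was below the lower of siPIK3R1 and siPIK3R3 by a median of -1.04 (quartiles -1.28 and -0.83, widest -2.95). By the rule neither could be nearer to 0 than -0.58. The number of detected probes at least 1.5-fold below all 7 other arrays was 595 in the miRNA combination (3.13%) and 1031 in the siRNA combination (5.42%), of which the 334 shared probes made up 56.1% and 32.4%.

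Within the set the combinations lay close to each other. The siRNA minus the miRNA combination had a median log2 difference of -0.07 (quartiles -0.30 and 0.07). It was negative for 205 probes, positive for 113 and exactly 0 for 16, all at the floor on both arrays. Over all detected probes, 57.7% were lower in the siRNA combination. At 1.5-fold, the siRNA combination was the lower one for 19 of the 334 probes (13.9% of all detected probes) and the higher one for 2 (9.57%). The rule, which takes the higher of both values, favours probes with like levels in both.

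The 7 other arrays differed among themselves by about as much as the gap. Their range had a median of 0.81 on the log2 scale (1.75-fold, quartiles 0.60 and 1.15), against 0.97 over all detected probes. The gap was wider than this range for 156 probes of the set and narrower for 178. The range was smallest among bright probes, with a median of 0.71, against 0.82 at middle level and 0.98 among dim probes.

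The mirror set, probes higher in both combinations than on every other array by at least 1.5-fold, was smaller and dimmer. It held 181 probes (0.952% of detected probes), against 334 lower ones. The median level on the other 7 arrays was 287 for the lower probes and 31.2 for the higher ones. All 9 arrays detected 72.2% of the lower probes and 29.3% of the higher ones. The 334 lower probes had a median gap of 0.76 in size and 15.9% at 2-fold or more, against 0.80 and 25.4% for the higher ones. In the mirror set, the median place was 0.13 for siPIK3R1 (quartiles -0.04 and 0.34) and 0.12 for miR-181b (-0.02 and 0.36). The medians of the other 5 arrays were -0.06 to -0.01. These 2 arrays were thus nearest to the combinations by median, but less so than in the lower set and with wide quartiles. Probes lower in siPIK3R3 and the siRNA combination alone, by the same rule for these 2 arrays, numbered 99 (0.521%). The floor treats higher and lower probes unequally, since a lower probe must start at 24 or more, and no test of these differences is possible with 1 array per group.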

How the data were processed

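Total RNA of 9 transfections was measured on Illumina arrays from biotin-labeled cRNA, per the labels' protocols. The deposited raw table gives a linear signal intensity and a detection p-value per probe and array, per the file headers. The deposited processed intensity values, made by the authors, are a straight line of each array's raw signal, with a level subtracted and an equal mean; their computation is not stated in those sources. Arrays were assigned to groups from their labels.

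The set was taken from the processed intensities (floor 16, log2, detection p under 0.01 on at least 1 array, gap of log2 1.5). With 1 array per group, counts and medians replaced tests. The code of the rule was checked for finding planted probes in simulated data. Those data had 1 level per probe and less spread than the arrays, so the check gives no rate of false calls here. Members, lists and rules were chosen with earlier results of these data known. Without gene names for the probes, the planned gene lists, markers of cell types and comparison of probes of 1 gene could not be run. The rule for named genes (widest gaps, brightest probes, list members) was reduced to the 2 widest gaps. Alternatives were neqc and quantile normalization with limma 3.58.1 (R 4.3.3), equal medians, other floors and filters, a 2-fold gap and leaving out arrays. Ranks and a detection limit for undetected values were added after seeing the data. Other steps used Python 3.11.15, numpy 2.4.6 and pandas 2.3.3.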

Additional observations from a re-analysis of the deposited data

How the results depend on the processing

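The set kept its direction, and its size varied with the processing. The settings rework the same signals by which the set was chosen, so a kept direction does not test it. All 334 probes had a gap below 0 with neqc (background correction and quantile normalization of the raw intensities), with quantile normalization without background correction and with equal array medians. With floors of 32 and 64 this held for 318 and 268 probes, the others being at the floor on the arrays that set the gap. At 1.5-fold the rule gave 221 probes with neqc (218 of them in the set), 118 without background correction (all 118 in the set) and 315 with equal medians (301 in the set). A gap of 2-fold gave 53. Leaving out siPIK3R1 gave 593 probes, leaving out miR-181b 496, and leaving out any other single array 340 to 370. Since the rule takes the lowest of the other arrays, leaving one out can only add probes and widen gaps. The median gap was -0.47 with quantile normalization without background correction. The part of each of these steps in the narrower gap was not tested. In the same setting the median difference of the set from the negative control was -1.04 in the siRNA combination and -0.40 in siPIK3R1. Of all alternative values of the counts, the median gap and the median differences, 47 of 55 stayed within the limits set for likeness (1.5 times, or 0.1 for small differences). No median changed sign, and counts have none. Part of these outcomes was fixed by the rule, so the tally is a description and no test. With undetected values raised to the detection limit, 269 probes of the set remained. By rank within the array, with no threshold of size, 2456 probes were lower in both combinations. The gap of ILMN_2239772 was -0.18 with a floor of 64, and that of ILMN_1811823 stayed past 1.5-fold under all alternatives run. No paired analysis was possible because there was 1 array per group. All alternatives for gene lists were not run, as the probes have no gene names here.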

Other observations

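Of the 334 probes, 115 met the 1.5-fold rule under each of 5 other treatments of the intensities (neqc, no background correction, equal medians and floors of 32 and 64), and 216 met it under both neqc and equal medians. The mirror set of higher probes held 132 probes with neqc, 50 without background correction and 212 with equal medians, against 181 in the authors' processed values, so the lower set was the larger one in each of these settings.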
